A study of Homo sapiens with 8 samples.

Results

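The human kallikrein genes are a cluster of serine protease genes side by side on chromosome 19. Described here are 10 of them, KLK2, KLK3, KLK4, KLK5, KLK6, KLK7, KLK8, KLK10, KLK11 and KLK15, followed through every array probe whose RefSeq transcript carries 1 of these symbols. That rule found 12 of the 42405 probes on the array, 2 each for KLK2 and KLK6 and 1 for each other gene. All 12 passed the filter on low signal, KLK7 and the second KLK6 probe only through the arrays on which they were brighter.

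LNCaP cells, an androgen-responsive line from a human prostate cancer metastasis, were grown in RPMI-1640 with 10% fetal bovine serum and transfected by means of oligofectamin. One group received 30 nM siGATA2, an siRNA against the transcription factor GATA2, and the other siControl, a scrambled siRNA. RNA taken at 72 h was hybridised to 8 one-colour Agilent arrays, 4 per group, which the submitters call replicates. The study used this comparison to find genes downstream of GATA2, and as a model it is limited to 1 cell line and 1 commercial siRNA.

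Kallikreins are secreted as inactive precursors and become active when another protease, often another kallikrein, removes a short leader peptide. In the prostate, the luminal epithelial cells secrete several of them into seminal plasma, and transcription of KLK2, KLK3 and KLK4 is driven by androgens. GATA2 is known as a transcription factor that helps open chromatin at androgen-regulated genes. Other kallikreins are better known from skin, where KLK5 and KLK7 shed the outermost cells, and from the nervous system.

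A signal below is the log2 of the processed signal after quantile normalization, and log2 fold changes are siGATA2 means less siControl means. A gene was called lower or higher where limma, fitted over 35546 probes with Benjamini-Hochberg adjustment, gave an adjusted p under 0.05. Signals can be compared between arrays for 1 probe and not between probes. The number of probes well above background ran from 34387 to 36976 on the arrays labelled siGATA2 and was 28501, 34825, 24331 and 34022 on siControl arrays 1 to 4. The arrays labelled siGATA2 formed close pairs: over the probes tested the median absolute log2 difference was 0.101 between arrays 1 and 2 and 0.0965 between arrays 3 and 4, against 0.398 to 0.419 across the pairs, while siControl array 1 was 0.374 to 0.385 from the other controls, which were 0.104 to 0.174 apart. Whether a pair shares a culture is not given in the sources used here, so results were also computed with each pair averaged, an alternative chosen after seeing the data. No probe was saturated, all arrays lay on 1 slide, and precision is limited by 4 arrays per group. Of the luminal markers, KRT8, KRT18, FOLH1, TMPRSS2 and HOXB13 were well above background on all 8 arrays, and KRT8 was called higher on the arrays labelled siGATA2 (log2 fold change 0.56, adjusted p = 0.0287 from limma) and HOXB13 lower. Of the basal markers KRT5 was below the filter, while KRT14 was well above background on 4 siGATA2 and 3 siControl arrays (-0.98, adjusted p = 0.183 from limma, without overlap) and TP63 on 2 and 1 (0.40, not called). The stromal markers COL1A1 and DES and the endothelial VWF and CDH5 were well above background on all 8 arrays, DCN on 4 siGATA2 and 2 siControl arrays, COL1A2 on 2 and 0 and PECAM1 on 1 and 0. VWF was called lower (-0.96, adjusted p = 0.00162 from limma), and the other 6 stromal and endothelial markers were not called. Of the 3 leukocyte markers CD68 and PTPRC were higher on the arrays labelled siGATA2 (log2 fold changes 2.00 and 0.88). CD3E was not called (-0.13, adjusted p = 0.423 from limma), nor was a second PTPRC probe (0.59, adjusted p = 0.0532 from limma). The log2 of the summed signal of all 3 markers, none of them below the filter, ran from 9.87 to 10.14 on the siGATA2 arrays and from 8.78 to 9.09 on the siControl arrays. Since signals of different probes cannot be compared, the sum is weighted to the brighter probes and does not measure leukocyte content. The part of these marker differences in the kallikrein results was not tested.

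The targeted gene did not separate the groups in the direction of the labels. GATA2, read by 1 probe, had signals of 12.61, 12.54, 11.57 and 11.40 on arrays 1 to 4 labelled siGATA2 and of 11.74, 11.28, 11.09 and 11.29 on the siControl arrays. The first pair of siGATA2 arrays lay above every siControl array and the second pair lay among them. The log2 fold change was 0.68 (SE 0.312, adjusted p = 0.151 from limma), so the arrays are named below by their labels and every direction rests on those labels.

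Expression fell for 5 of the 10 kallikreins and rose for 2 on the arrays labelled siGATA2. In RNA from a whole culture, fewer cells that express a gene and less of its RNA per cell cannot be told apart. The 5 lower genes were KLK2, KLK3, KLK4, KLK5 and KLK15 and the 2 higher genes were KLK6 and KLK7, while KLK8, KLK10 and KLK11 were not called. Across all 28876 genes tested 14.1% were called lower and 12.3% higher. Of these, 17874 had a gene symbol, as every listed gene does, and the rest carried only the array's own name. Shares of all genes, here and below, cover both kinds, and shares for genes with a symbol alone were not computed. With a fold of at least 2 asked for as well, 4 of the 10 were lower, against 7.09% of all genes, and 1 was higher, against 4.56%. By probe, 6 of 12 were lower and 2 higher, where 14.4% and 12.5% of all probes were, and the lower 6 did not overlap between groups, as was so for 16.6% of all probes in that direction (16.3% upward). The groups did not overlap for the same 7 genes that were called, a pattern that 16.3% of all genes showed downward and 16.2% upward. An exact two-sided permutation test gives any such gene the smallest p that 4 against 4 arrays allow (0.0286), so it only restates the lack of overlap. KLK7 passed the filter only through the siGATA2 arrays, so it had to differ between the groups.

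In their order along chromosome 19, KLK15, KLK3, KLK2, the pseudogene KLKP1, KLK4 and KLK5 follow one another. All 6 were called lower, against 14.1% of all genes. On one side lies KLK1, not called, and on the other KLK6 and KLK7, both called higher. KLK6 lost its call under 12 of 23 alternatives, and KLK7 passed the filter only through the siGATA2 arrays. The run was picked out after the calls were seen, and gene order was not tested. KLK12 and KLK14, which lie further along the cluster and are not among the 10, were also called lower.

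**Figure D1:**
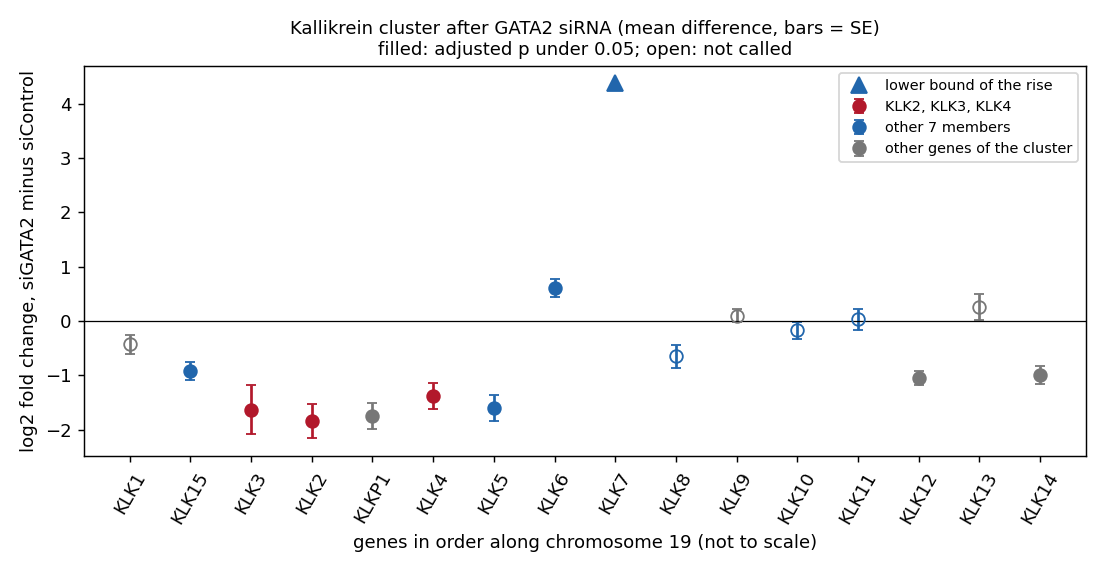
Log2 fold change of each gene of the kallikrein cluster (vertical axis, siGATA2 mean minus siControl mean, bars show the SE of limma, 4 arrays per group) in gene order along chromosome 19 (horizontal axis, not to scale). Filled symbols passed the test and open ones did not, and the triangle for KLK7 is its rise against a background floor. The figure labels it a lower bound, but it is not a strict one. KLK15 to KLK5 sit between -0.92 and -1.84, and KLK7 stands apart above 4.

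KLK3, KLK2 and KLK4 make up the androgen-driven group, chosen from what is known of these genes. KLK3 encodes prostate-specific antigen, the protease that liquefies the seminal clot, KLK2 encodes a trypsin-like protease that can activate the KLK3 precursor, and KLK4 encodes a protease that activates several kallikrein precursors. The upstream sequences of KLK3 and KLK2 are shown because both hold a match to the androgen response element at nearly the same distance from the start. They are the 250 bases before the transcription start, from RefSeq on GRCh38.p14, 5′ to 3′ on the plus strand, with capitals on the best match to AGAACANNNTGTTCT, that is, 2 half-sites of 6 bases spaced by 3.
KLK3 chr19:50854665-50854914: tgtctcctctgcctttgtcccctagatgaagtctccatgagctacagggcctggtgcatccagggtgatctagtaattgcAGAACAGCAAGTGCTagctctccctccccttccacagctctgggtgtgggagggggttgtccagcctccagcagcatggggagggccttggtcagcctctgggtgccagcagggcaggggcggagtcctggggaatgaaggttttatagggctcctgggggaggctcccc
KLK2 chr19:50873189-50873438: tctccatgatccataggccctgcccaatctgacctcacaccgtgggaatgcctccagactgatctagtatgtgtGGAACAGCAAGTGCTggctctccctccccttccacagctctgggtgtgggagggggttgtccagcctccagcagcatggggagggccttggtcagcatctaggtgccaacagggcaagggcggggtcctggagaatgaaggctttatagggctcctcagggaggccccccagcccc

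The match starts 170 bases before the KLK3 start, with 2 mismatches among the 12 fixed bases, and 176 bases before the KLK2 start, with 3. On either strand, 1.41% of 35116 RefSeq promoter windows (250 bases before to 50 after a start) hold a match with at most 2 mismatches and 10.8% one with at most 3. The KLK3 and KLK2 upstream sequences were identical at 80.2% of 263 aligned columns. The half-site AGAACA, which lies inside the KLK3 match, was found in 1 of the 9 member genes with a promoter in the table and in 14.8% of all windows, and GGAACA, inside the KLK2 match, in KLK2, KLK4 and KLK6 and in 14% of all windows. The units differ, since the 9 genes have 15 windows and a gene counts if any of its windows holds the motif. TATAAA was present on the reverse strand upstream of KLK3, KLK2 and KLK15. Neither KLK3 nor KLK2 held a GATA site in this window, by which is meant AGATAA or else AGATAG, and likewise TGATAA or else TGATAG, on either strand. These are matches of letters, and binding was not measured.

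KLK3 had signals of 16.48, 16.21, 14.59 and 14.70 on siGATA2 arrays 1 to 4 and of 17.53, 17.09, 17.02 and 16.86 on siControl arrays 1 to 4. Every siGATA2 array was below every siControl array, and arrays 3 and 4 were much lower than arrays 1 and 2. The means were 15.49 ± 0.986 (SD, n = 4) and 17.12 ± 0.287 (SD, n = 4). KLK3 fell 3.09-fold (log2 fold change -1.63, SE 0.456, adjusted p = 0.0319 from limma). Of the 5 lower genes KLK3 lost its call under the most alternatives. It was lost with slide row as a block (-1.81, adjusted p = 0.0665 from limma), with the methods' t-test (adjusted p = 0.0671), and without siGATA2 array 3 or 4 or any 1 siControl array, where the adjusted p ran from 0.0590 to 0.0736. With the siGATA2 pairs averaged the adjusted p was 0.0844 (limma).

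KLK2 was read by 2 probes. The brighter gave 11.87, 11.70, 10.53 and 10.79 on the siGATA2 arrays and 12.72, 13.16, 13.24 and 13.15 on the siControl arrays. Again the groups did not overlap and siGATA2 arrays 3 and 4 were the lowest. KLK2 fell 3.59-fold (log2 fold change -1.84, SE 0.317, adjusted p = 0.00375 from limma), from 13.06 ± 0.234 to 11.22 ± 0.661 (SD, n = 4 each). The second probe gave 8.66, 8.43, 7.51 and 7.22 against 9.82, 9.19, 9.34 and 9.15, a 2.67-fold fall (adjusted p = 0.0177 from limma). The probes thus moved in the same direction. KLK2 and KLK3 are close paralogs, and whether either transcript also binds the other's probes was not tested, as probe sequences were not used here.

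KLK4 had signals of 11.61, 11.28, 10.57 and 10.69 on the siGATA2 arrays, against 12.37, 12.40, 12.38 and 12.52 on the siControl arrays. The siControl arrays lay close together, and every siGATA2 array was below them. The fall was 2.61-fold (log2 fold change -1.38, SE 0.233, adjusted p = 0.00340 from limma), from 12.42 ± 0.0671 to 11.04 ± 0.493 (SD, n = 4 each).

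**Figure D2:**
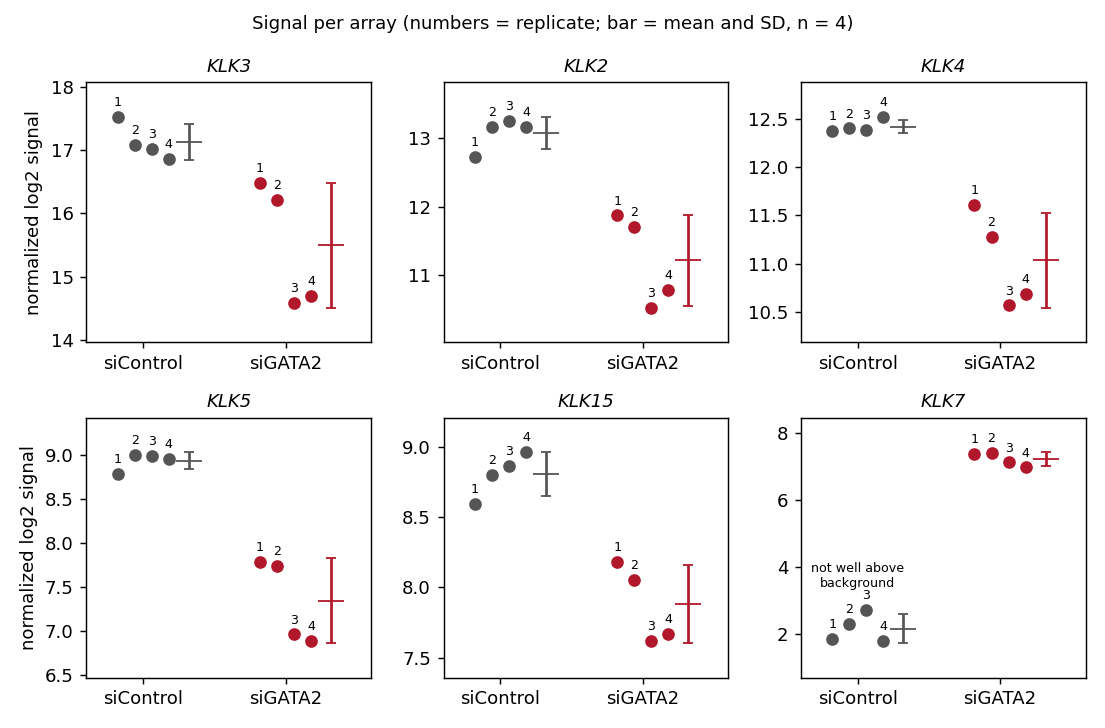
Normalized log2 signal (vertical axis, a separate scale for each gene that does not start at 0) of 6 kallikrein genes on each array, grouped by label, with replicate numbers above the points and the mean and SD (n = 4) beside them. All 6 are called genes, and KLK7 passed the filter only through the siGATA2 arrays. In all 6 genes the groups do not overlap, as was so for 16.3% of all genes downward and 16.2% upward. In KLK3, KLK2, KLK4, KLK5 and KLK15 siGATA2 arrays 3 and 4 are lower than arrays 1 and 2.

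The other 7 kallikreins did not move one way. KLK15 encodes a trypsin-like protease able to activate the KLK3 precursor, and KLK5 a protease that starts the activation cascade in skin. KLK15 and KLK5 were called lower, KLK6 and KLK7 higher, and for 3 no call was made. Over these 7 the median log2 fold change was -0.17, against -1.63 for KLK2, KLK3 and KLK4 and 0.09 for all genes tested. The median of the 7 is the same with KLK7 placed at its rise against the floor, given below. The difference between these medians was not tested, since genes of a list are not replicates. KLK5, at -1.6, lay within the range of the 3 androgen-driven genes, from -1.84 to -1.38.

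KLK5 had signals of 7.78, 7.74, 6.96 and 6.89 on the siGATA2 arrays and of 8.79, 9, 8.99 and 8.96 on the siControl arrays. The groups were far apart compared with the spread of the siControl arrays. KLK5 fell 3.02-fold (log2 fold change -1.6, SE 0.231, adjusted p = 0.00162 from limma), from 8.94 ± 0.0958 to 7.34 ± 0.484 (SD, n = 4 each).

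KLK15 gave 8.18, 8.05, 7.62 and 7.67 on the siGATA2 arrays and 8.59, 8.80, 8.86 and 8.96 on the siControl arrays. The gap between the groups was narrower than for KLK5, and they did not overlap. KLK15 fell 1.89-fold (log2 fold change -0.92, SE 0.162, adjusted p = 0.00412 from limma). It was the only 1 of the 5 lower genes to lose its call with scaling to spike-in probes, where its log2 fold change was -1.43 (adjusted p = 0.0991 from limma).

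KLK7 moved furthest. It encodes a chymotrypsin-like protease of the outer skin that cuts proteins holding corneocytes together. The signals were 7.38, 7.42, 7.13 and 6.98 on the siGATA2 arrays and 1.84, 2.31, 2.72 and 1.78 on the siControl arrays. Its probe rose above background on 4 of 4 siGATA2 arrays and 0 of 4 siControl arrays, among them siControl arrays 2 and 4, on which most other probes were detected. Its rise was 20.6-fold when the siGATA2 mean of 7.23 was set against a floor of 2.86. Per siControl array, the floor is the higher of KLK7's own signal and the lowest signal of any probe well above background. The mean over the siControl arrays was used. This is not a strict lower bound, since probes not well above background can lie above such a floor. KLK11 did so on siControl arrays 2, 3 and 4. The adjusted p of 1.52e-05 from limma is no separate support, since KLK7 passed the filter only through the siGATA2 arrays. With normexp background correction and its offset of 50 the log2 fold change was 1.66.

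The upstream sequences of KLK5, which fell, and KLK7, which rose, are shown because these are the 2 of the 9 member genes whose window held a GATA site. They are the 250 bases before the start on GRCh38.p14 from RefSeq, 5′ to 3′ on the minus strand, with the GATA site in capitals. For KLK7 the start shown is the one with the nearest upstream site.
KLK5 chr19:50953039-50953288: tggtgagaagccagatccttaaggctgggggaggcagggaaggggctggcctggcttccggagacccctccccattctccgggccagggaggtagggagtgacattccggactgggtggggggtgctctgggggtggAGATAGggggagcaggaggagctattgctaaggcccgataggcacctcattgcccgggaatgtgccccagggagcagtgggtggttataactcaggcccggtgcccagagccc
KLK7 chr19:50983918-50984167: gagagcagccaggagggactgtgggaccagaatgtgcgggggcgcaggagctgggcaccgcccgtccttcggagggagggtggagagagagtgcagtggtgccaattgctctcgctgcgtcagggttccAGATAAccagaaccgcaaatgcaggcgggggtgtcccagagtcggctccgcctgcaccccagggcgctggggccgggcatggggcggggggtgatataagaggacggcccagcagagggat

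The site begins 113 bases before the KLK5 start and 121 before the KLK7 start. Of all 35116 windows 25% held at least 1 of these 4 GATA sequences on either strand. This share counts windows and not genes, and the 9 member genes have 15 windows. The match occurs in a gene that fell and in a gene that rose.

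KLK6, a trypsin-like protease abundant in brain, rose less. Its brighter probe had signals of 6.05, 6.03, 6.07 and 5.79 on the siGATA2 arrays and of 5.13, 5.65, 5.10 and 5.62 on the siControl arrays. The groups did not overlap, although siControl arrays 2 and 4 came close to siGATA2 array 4. The rise was 1.53-fold (log2 fold change 0.61, SE 0.166, adjusted p = 0.0284 from limma), with the probe well above background on 2 of 4 siControl arrays. The second probe gave 4.08, 3.49, 3.88 and 4.32 against 1.91, 3.90, 1.99 and 4.01 and was not called (log2 fold change 0.99, SE 0.535, adjusted p = 0.217 from limma). Its siControl signals fell into a low pair, arrays 1 and 3, which also had the fewest probes well above background, and a pair within the siGATA2 range. Against siControl arrays 2 and 4 alone, the difference of the brighter probe was 0.35 (adjusted p = 0.108 from limma), with slide row as a block it was 0.47 (adjusted p = 0.124 from limma), and with the siGATA2 pairs averaged the adjusted p was 0.147 (limma).

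KLK8, KLK10 and KLK11 were not called. KLK8, a protease known from the hippocampus and skin, had signals of 5.14, 4.91, 5.43 and 5.54 on the siGATA2 arrays and of 6.26, 6.04, 5.51 and 5.79 on the siControl arrays (log2 fold change -0.65, SE 0.207, adjusted p = 0.0527 from limma). Only siControl array 3 reached into the siGATA2 range, and without it the log2 fold change was -0.78 (adjusted p = 0.0310 from limma). KLK10, described as a candidate tumour suppressor in breast, ran from 5.25 to 5.56 on the siGATA2 arrays and from 5.33 to 5.94 on the siControl arrays, a log2 fold change of -0.17 (SE 0.158, adjusted p = 0.474 from limma) that turned positive (0.16) with scaling to the 75th percentile. KLK11 was dim, well above background on 2 siGATA2 arrays and 0 siControl arrays, and ran from 3.09 to 3.77 and from 2.99 to 3.46. No fold is given for it, and its sign was not stable to scaling.

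**Figure D3:**
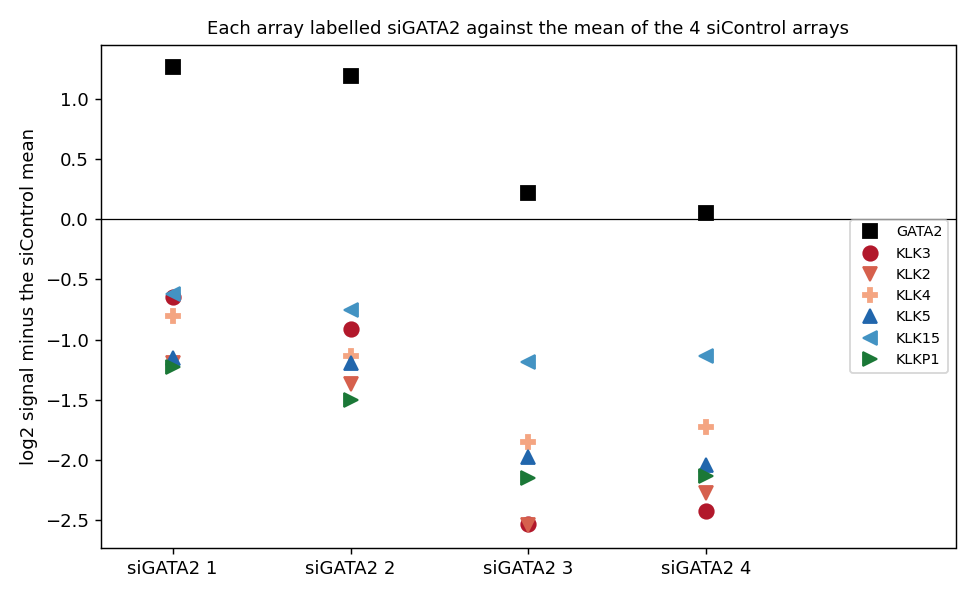
Log2 signal of each array labelled siGATA2 minus the mean of the 4 siControl arrays (vertical axis), for GATA2, 5 kallikrein genes and the pseudogene KLKP1, with 1 column of points per array (horizontal axis). The kallikreins and KLKP1 are lower on arrays 3 and 4 than on arrays 1 and 2, and GATA2 is above the siControl mean by more on arrays 1 and 2.

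The 4 arrays labelled siGATA2 fell into the pairs named above for each lower kallikrein. Arrays 3 and 4 were below arrays 1 and 2 for KLK2, KLK3, KLK4, KLK5 and KLK15, and also for GATA2 and KLKP1. Slide rows were unbalanced, with siGATA2 arrays 1, 2 and 3 and siControl array 4 in the first row and the others in the second, which does not divide the arrays into those pairs. Within the first and the second row the differences were -1.10 and -2.51 for KLK3, -1.78 and -2.25 for KLK2, -1.36 and -1.70 for KLK4, -1.47 and -2.04 for KLK5, -1 and -1.08 for KLK15 and 5.53 and 4.69 for KLK7, with 1 array on one side of each. The groups did not overlap for these genes, so the direction had to be the same in both rows. The genes whose signals most resembled KLK3 over the 8 arrays, among 13281 well above background on all of them, were PTPRU (r = 0.999), MSTO1 and NCR3LG1 (both 0.997), and AKAP1 and HAUS5 (both 0.996). For KLK2 they were PLPP1 (0.998), DDX39A and REEP4 (both 0.996), and FAM83H and MCM7 (both 0.995). These correlations share the 8 arrays and the difference between the groups, and the log2 fold changes of these 10 genes ran from -1.67 to -0.65.

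Of 7 further genes of the family that were measured, namely KLK1, KLK9, KLK12, KLK13, KLK14, KLKP1 and KLKB1, which lies outside the cluster, 3 were lower and 0 higher (0 higher at an unadjusted p under 0.05 from limma and 0 with the methods' t-test), against 14.1% and 12.3% of all genes, and 1 was lower with scaling to spike-in probes. KLKP1, a pseudogene between KLK2 and KLK4, had signals of 11.31, 11.03, 10.39 and 10.40 on the siGATA2 arrays and of 12.82, 12.40, 12.45 and 12.47 on the siControl arrays. The groups were well apart, and KLKP1 fell 3.37-fold (log2 fold change -1.75, SE 0.234, adjusted p = 0.00107 from limma). KLK12 fell 2.06-fold (log2 fold change -1.04, SE 0.130, adjusted p = 0.000758 from limma) and KLK14 1.99-fold (-0.99, SE 0.166, adjusted p = 0.00327 from limma), KLK14 close to background, since it was detected on 3 siGATA2 and 2 siControl arrays. KLK1, the tissue kallikrein that releases kinins, had a log2 fold change of -0.43 (SE 0.173, adjusted p = 0.111 from limma), and KLK9, KLK13 and KLKB1 had 0.10, 0.25 and -0.24, none of them called.

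Of a list of nuclear receptor cofactors and transcription factors of the prostate, 14 of 16 genes were tested, of which 3 were lower, 4 higher and 7 not called, with a median log2 fold change of -0.07, where 14.1% of all genes were lower and 12.3% higher. With the siGATA2 pairs averaged 0 were lower and 2 higher, and with scaling to spike-in probes 0 and 0. The share of all genes called under such alternatives was not computed, for this list, the other lists or the family genes. Whether these losses of calls are particular to a list was not tested. The largest falls were of CARM1, a coactivator methyltransferase, and KDM1A, a histone demethylase. CARM1 had signals of 12.71, 12.54, 11.94 and 11.91 on the siGATA2 arrays and of 13.06, 13.24, 13.17 and 13.21 on the siControl arrays, without overlap (log2 fold change -0.90, SE 0.201, adjusted p = 0.0128 from limma). KDM1A fell 1.84-fold (-0.88, SE 0.172, adjusted p = 0.00700 from limma). The largest rises were of the steroid receptor coactivators NCOA3 (1.6, SE 0.109, adjusted p = 4.78e-05 from limma) and NCOA2 (0.86, SE 0.125, adjusted p = 0.00164 from limma). A second NCOA2 probe was not called (0.52, SE 0.227, adjusted p = 0.136 from limma), nor was the second probe of NCOA1 (0.06, adjusted p = 0.855 from limma). HOXB13, a homeobox factor of prostate epithelium and the third lower gene, had a log2 fold change of -0.40 (SE 0.1, adjusted p = 0.0204 from limma). FOXA1, a pioneer factor, had one of 0.03.

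Of the proteases that activate kallikreins and the inhibitors that block them, 18 of 21 listed genes were tested. Here 2 were lower, 4 higher and 12 not called, with a median of 0.04, against 14.1% lower and 12.3% higher over all genes. With scaling to spike-in probes 1 was lower and 1 higher. SPINT1, a membrane-bound inhibitor of trypsin-like proteases, had signals between 14.91 and 15.06 on the siGATA2 arrays and between 12.91 and 13.02 on the siControl arrays. The arrays of each group nearly coincided, and the rise was 4.08-fold (log2 fold change 2.03, SE 0.0924, adjusted p = 1.52e-05 from limma). SERPINC1, which encodes antithrombin, rose 5.26-fold (adjusted p = 0.000318 from limma) and was well above background on 2 siControl arrays. SERPINA1 and SPINT2 were the other 2 that rose. PLAT, the tissue plasminogen activator, was well above background on 0 siGATA2 and 3 siControl arrays and had means of 2.90 and 5.80. It fell at least 7.46-fold (adjusted p = 0.000222 from limma), which is also the ratio of the means, since its own signal was above the floor on each siGATA2 array, and it passed the filter only through the siControl arrays. This bound takes the siControl mean of PLAT as measured and is not strict. PLG, plasminogen, was dim, with means of 3.91 and 4.56, and well above background on 4 siGATA2 and 2 siControl arrays. Its fall of 1.57-fold (adjusted p = 0.0275 from limma) thus rests partly on signals at background. TMPRSS2 and HPN, membrane proteases of prostate epithelium, had log2 fold changes of -0.13 and -0.55 and were not called.

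Of the known substrates and receptors cleaved by kallikreins, grouped with 2 further prostate secretory proteins, 13 of 16 listed genes were tested. A fall was called for 6 and a rise for 0 (2 at an unadjusted p under 0.05 from limma, and 0 with the methods' t-test), 7 were not called, and the median was -0.58, where 14.1% of all genes were lower and 12.3% higher. With scaling to spike-in probes, and likewise with the filter on probes detected on at least 4 arrays, 4 were lower. DSC1, a desmosomal cadherin, was called lower (adjusted p = 0.000283 from limma) with means of 2.43 and 6.18. Its probe was well above background on 1 siGATA2 and 2 siControl arrays, and no fold is given because most of its siGATA2 signals lay at background. IGFBP5, which binds insulin-like growth factors, was well above background on 0 siGATA2 and 2 siControl arrays. It fell at least 6.86-fold if its siControl mean is taken as measured (adjusted p = 0.00215 from limma). This is not a strict bound, since its signal of 3.96 on siControl array 1 lay below that array's floor of 4.45. DSC1 and IGFBP5 passed the filter only through the siControl arrays. The other 4, named after their values were seen, were ACP3, prostatic acid phosphatase, which fell 4.42-fold, MSMB, a major protein of seminal plasma, which fell 5.65-fold, fibronectin FN1, which fell 2.20-fold, and the thrombin receptor F2R, which fell 2.01-fold. The seminal clot proteins SEMG1 and SEMG2, the physiological substrates of KLK3, were below the filter on low signal.

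**Figure D4:**
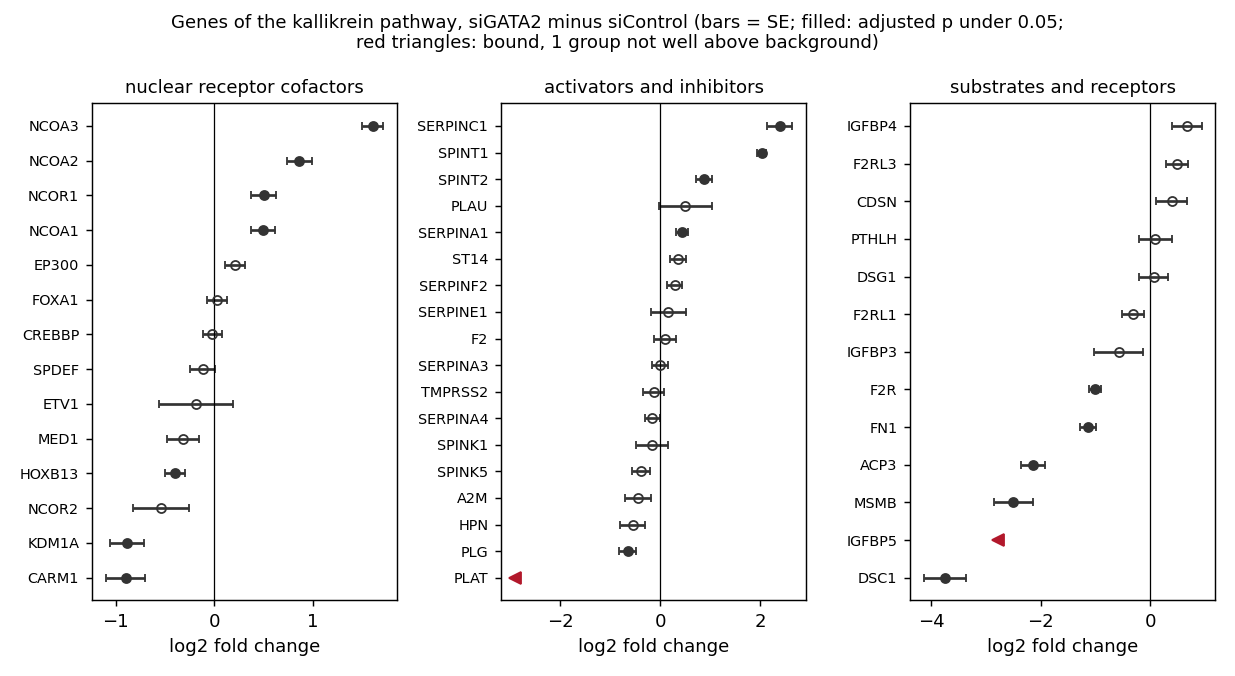
Log2 fold change (horizontal axis, siGATA2 mean minus siControl mean, bars show the SE of limma, 4 arrays per group) of the tested genes in 3 lists, nuclear receptor cofactors, activators and inhibitors, and substrates and receptors. Filled points passed the test, open ones did not, and red triangles are bounds that take the siControl mean as measured and are not strict. NCOA3 is the highest of its list, SPINT1 and SERPINC1 lead the rises among inhibitors, and each called substrate lies left of 0.

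The calls of the kallikrein genes were recomputed under 23 alternatives each (22 for KLK11). KLK2, KLK4, KLK5 and KLK7 were called in the same direction under all 23, with log2 fold changes from -2.52 to -1.61 for KLK2, from -2.03 to -1.23 for KLK4, from -2.09 to -1.28 for KLK5 and from 1.66 to 5.25 for KLK7. The KLK7 values rest on siControl signals not well above background. Its calls are no separate support, since it passed the filter only through the siGATA2 arrays. KLK15 lost its call under 1, KLK3 under 10 and KLK6 under 12, none with a change of sign. Relative to the median of all genes, which scaling to spike-in probes moved from 0.09 to -0.43, KLK3 was at -1.72 with quantile normalization and -2.01 with the spike-in scaling, and KLK2 at -1.93 and -2.09. The spike-in means of siControl arrays 2, 3 and 4 were 13.62, 13.68 and 13.69, within the siGATA2 range of 13.45 to 13.83. That of siControl array 1 was only 11.13. Every value and count with spike-in scaling includes this low array, and the scaling was not tested without it.

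**Figure D5:**
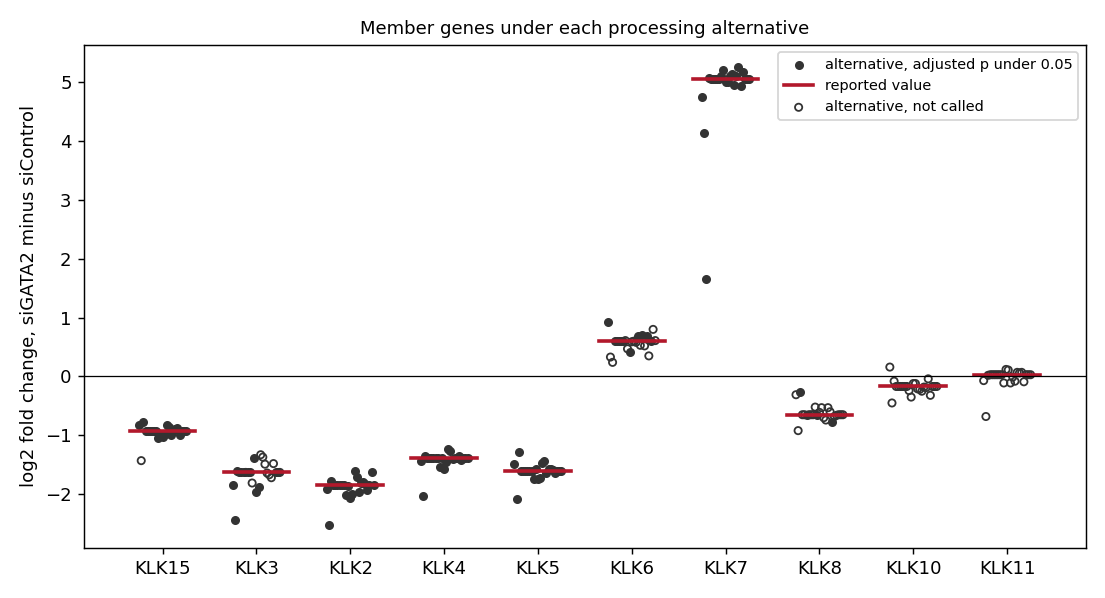
Log2 fold change (vertical axis, siGATA2 minus siControl) of the 10 kallikrein genes under each processing alternative, with filled points where the adjusted p was under 0.05 and open points where it was not, and a red line at the reported value (for KLK7, the fitted value, which is not a bound). KLK2, KLK4, KLK5 and KLK7 have filled points alone, KLK3, KLK6, KLK8 and KLK15 have both kinds, and KLK11 scatters around 0.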

How the data were processed

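LNCaP cells 72 h after 30 nM siGATA2 or siControl were measured on 4 arrays per group. The authors deposited each spot's intensity from Agilent Feature Extraction 11.0.1.1, background-corrected within the array and not normalized between arrays, and log2 values that their methods describe as quantile-normalized. The array files name another design than the methods. Here, log2 processed signals of unflagged spots were averaged per probe and quantile-normalized over the 8 arrays, which gives every array the same distribution and removes any overall shift between groups. Annotated probes with a mean of at least 3 were kept (35546 of 40491) and fitted with lmFit and eBayes of limma 3.58.1 in R 4.3.3. Names came from a RefSeq table of GRCh38.p14 (26364 of 27902 RefSeq probes matched). The brightest probe stood for a gene. The fit was tested on simulated data. The genes named by rule are the kallikreins, GATA2, in each list the 2 called genes with the largest fall and rise, and 5 genes most like KLK2 and KLK3. Cell type markers and genes flagged for a closer look are named as well. Others were named outside that rule, such as HOXB13, FOXA1, NCOA1, TMPRSS2, HPN, SERPINA1, SPINT2, ACP3, MSMB, FN1 and F2R. Members and lists were chosen with earlier results of these data known. Alternatives changed scaling, background correction, dim-probe filter, test, blocks, weights, arrays, array pairs and probe summary. Protein identity was not computed, and 2 listed genes are not reported here.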

Additional observations from a re-analysis of the deposited data

Results flagged for a closer look

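Among 130 sets of 4 arrays, 1 array stood apart from the other 3 in 8, where chance sets apart about 1 in 20. The gap of that array to its nearest neighbour is given as a share of the whole range of the 4. siControl array 1, whose spike-in mean was 11.13 against 13.45 to 13.83 on the other arrays, was the one in 4 sets. It was higher than the other siControl arrays for PLAU (8.83 against 6.94 to 7.11, share 0.908) and the thrombin-activated receptor F2RL3 (11.27 against 10.51 to 10.60, share 0.885). It was lower for KLK11 (2.99 against 3.42 to 3.46, share 0.92) and IGFBP5 (3.96 against 5.76 to 5.99, share 0.885). siGATA2 array 4 was high for MSMB (6.56 against 5.08 to 5.25, share 0.889) and low for the brighter KLK6 probe (5.79 against 6.03 to 6.07, share 0.853). siControl array 3 was low for PTHLH (6.18 against 6.55 to 6.61, share 0.86) and SPINK1 (3.90 against 5.03 to 5.22, share 0.857). Of the called kallikreins KLK6 alone had an array set apart, and it lies on the side of the siControl arrays.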

How the results depend on the processing

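Precision is limited by 4 arrays per group and, for dim probes, by signal over background, lowest on siControl arrays 1 and 3. The replicate numbers do not pair the arrays (correlations of same-numbered arrays 0.52, -0.30, 0.16 and 0.18), and with a replicate block KLK6 lost its call (0.61, adjusted p = 0.0716 from limma), leaving 1 higher kallikrein gene and 1 higher probe, and 1 activator or inhibitor was lower. No cause was tested. The log2 fold change of KLK3 was -1.63 with the methods' t-test, -1.81 with slide row as a block and -1.48 against siControl arrays 2 and 4 alone (adjusted p = 0.141 from limma), and without 1 array at a time it ran from -1.96 to -1.33. With the siGATA2 pairs averaged, which was chosen after seeing the data, the values of KLK3 (-1.63) and KLK6 (0.61) stayed and their calls were lost, which left 1 higher kallikrein gene and 1 higher probe, 0 lower and 2 higher receptor cofactors, and 1 lower activator or inhibitor. The log2 fold change of KLK6 was 0.33 with spike-in scaling, 0.24 with normexp, 0.47 with slide row, 0.35 against siControl arrays 2 and 4 and 0.80 as the mean over probes, and ran from 0.52 to 0.70 without 1 array. KLK15 was -1.43 with spike-in scaling. KLK8 was called lower with array weights (-0.66), normexp (-0.27) and the filter on probes detected on at least 4 arrays (-0.65), and ran from -0.78 to -0.53 without 1 array. KLK10 turned to 0.16 with 75th percentile scaling. KLK11 turned to -0.07 with that scaling, -0.68 with spike-ins, -0.11 with array weights and -0.09 against siControl arrays 2 and 4, ran from -0.11 to 0.12 without 1 array (negative without siGATA2 array 3 (-0.11) or 4 (-0.01) or siControl array 1 (-0.08)), and had no value under the detection filter. The median of KLK2, KLK3 and KLK4 moved to -2.44 with spike-ins. That of the other 7 moved to -0.07 with the 75th percentile, -0.68 with spike-ins, -0.35 with array weights, -0.41 with the detection filter and -0.32 against siControl arrays 2 and 4, and ran from -0.25 to -0.04 without 1 array. The higher kallikrein genes and probes went from 2 to 1 with spike-ins, normexp, slide row, siControl arrays 2 and 4 and a 2-fold threshold, the genes also with the mean over probes, and both ran from 1 to 2 without 1 array. Of receptor cofactors, the lower went from 3 to 0 with spike-ins or 2-fold and to 1 against siControl arrays 2 and 4, and the higher from 4 to 0 with spike-ins, 1 with 2-fold and 2 with slide row or siControl arrays 2 and 4. Of activators and inhibitors, the lower went from 2 to 1 with spike-ins, 2-fold, an intensity trend, normexp, the detection filter and slide row, and ran from 1 to 3 without 1 array, and the higher from 4 to 1 with spike-ins and 2 with 2-fold. Among other family genes 1 was lower with spike-ins, against 3. A substrate was called higher (1) with the 75th percentile, array weights and siControl arrays 2 and 4, and 0 to 1 were without 1 array. Except for the 2-fold threshold, the share of all genes called was not computed under these alternatives. The counts therefore have no background beside them.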
